A study of Mus musculus with 24 samples.

Results

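Polycystic kidney disease is inherited as cysts that grow out of the renal tubules, and 5 mouse genes tied to it are described here by the m6A peaks listed on their exons. Pkd1 encodes polycystin-1, a large membrane protein that pairs with the cation channel polycystin-2, the product of Pkd2, in the primary cilium. Pkhd1 encodes fibrocystin, a membrane protein whose loss causes the recessive form of the disease. Ganab encodes the catalytic subunit of glucosidase II, an enzyme of the endoplasmic reticulum that trims the sugars of new glycoproteins such as polycystin-1. Bicc1 encodes bicaudal C1, an RNA-binding protein with KH and SAM domains whose loss also gives cystic kidneys. m6A is written on mRNA by the METTL3 and METTL14 complex at the sequence RRACH and is read by YTH proteins that act on splicing, stability and translation of the transcript. Peaks counted when they shared at least 1 bp with an annotated exon of one of these genes on its strand, which held for 62 of 91013 listed peaks. They lay on 3 of the 5 genes, Bicc1 with 51 peaks, Pkhd1 with 10 and Pkd1 with 1, whereas Pkd2 and Ganab had 0.

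MeRIP-seq, which sequences RNA fragments pulled down by an antibody against m6A, was performed on kidneys of male C57BL/6 mice, 4 per group and 12 in all. The mice were aged 8 weeks when assigned to groups. Controls received daily saline and then a vehicle injection. The injury group (IG) received daily saline and then cisplatin at 20 mg/kg, a platinum drug that damages tubular cells. The treatment group (TG) received berberine, a plant alkaloid, at 20 mg/kg per day for 14 days and then the same cisplatin dose, so no group had berberine without cisplatin. Kidneys were taken 72 h after the last injection. Whole kidney tissue was used, and fewer cells of a type, less RNA per cell and less methylation cannot be told apart in these lists.

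Each kidney had its own list of MACS peaks with a score, read here as -10 times the log10 of the p-value. The lists held 8531 to 9579 peaks in controls, 6745 to 8357 in IG and 5901 to 6753 in TG, without read counts, so the depth is unknown. IG 3 had the longest list in its group, and its share of loci in common with controls (48.1%) lay within the range of the other IG kidneys (45.7 to 48.2%). It stood apart on the genes described here, with 8 of the 14 Bicc1 peaks and 4 of the 7 Pkhd1 peaks of its group, and its label was taken as given, which the lists cannot settle. Of 10 markers of tubules and glomeruli 4 had a peak in any list, and Umod, Lrp2, Slc34a1 and Aqp2 were among those with none. Of 3 markers of injured tubules, Lcn2 and Krt20 had no peak in any kidney. Havcr1, the remaining one, was listed in 4 of 4 IG kidneys, with 3 peaks in IG 3 and 1 in each of the others, in 3 of 4 TG kidneys and in 0 of 4 controls. It thus separated the IG kidneys from controls but not from TG. Slc12a1, 1 of the 10 tubule and glomerulus markers, had 4 loci, of which 1 had a peak in 4 of 4 IG kidneys and 0 of 4 TG kidneys. Only such a split passes an unadjusted p of 0.05 in Fisher's exact test here. Over the series 0.449% of 13367 loci were called lower in TG than in IG, and 0 passed Benjamini-Hochberg adjustment. The Slc12a1 difference does not say which of these groups had berberine. The labels of IG and TG were therefore taken as given and were not checked by an independent measure. This bears on the direction of every IG and TG value. Of 5 leukocyte markers only Ptprc was listed, in 1 control kidney. Of 3 endothelial markers Pecam1 and Cdh5 were listed in all 12 kidneys.

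The Bicc1 exons at which the kidneys are compared below are shown as GRCm38 sequence of the minus strand of chromosome 10, 5′ to 3′, with RRACH in capitals. In RRACH, R stands for A or G and H for A, C or T.
Bicc1 exon 2 (chr10:71079190-71079236, 47 bp, coding): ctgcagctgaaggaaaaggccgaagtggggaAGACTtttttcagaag
Bicc1 exon 4 (chr10:70961135-70961214, 80 bp, coding): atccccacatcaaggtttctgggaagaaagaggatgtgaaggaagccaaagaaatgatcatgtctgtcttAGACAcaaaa
Bicc1 exon 15 (chr10:70943370-70943535, 166 bp, coding): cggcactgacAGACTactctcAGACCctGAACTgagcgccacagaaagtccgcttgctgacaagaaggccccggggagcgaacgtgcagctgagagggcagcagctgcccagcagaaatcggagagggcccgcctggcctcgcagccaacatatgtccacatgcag
Bicc1 exon 17 (chr10:70940486-70940640, 155 bp, coding): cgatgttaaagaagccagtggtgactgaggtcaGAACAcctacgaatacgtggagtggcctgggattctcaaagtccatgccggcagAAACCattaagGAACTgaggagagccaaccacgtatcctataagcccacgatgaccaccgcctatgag
Bicc1 exon 18 (chr10:70935832-70935988, 157 bp, coding): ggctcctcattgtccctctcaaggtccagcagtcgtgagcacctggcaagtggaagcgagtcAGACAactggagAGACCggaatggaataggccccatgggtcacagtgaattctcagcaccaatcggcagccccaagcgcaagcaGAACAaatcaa

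Exons 2 and 4 held 1 RRACH word each and exons 15, 17 and 18 held 3 each, and none of the 5 exons contained GGACT. RRACH occurred at least once in 60.7% of the 122 loci within 10% of the length of exon 2, and in 77.5 to 94.4% of the loci that close in length to exons 4, 15 and 17. Over its 10 loci Bicc1 had 14.8 RRACH words per kb on its own strand and 11.9 on the opposite strand, against 16.1 and 12.3 over all 16815 loci of the series. A locus is a stretch joined from overlapping peaks of any kidneys on the same strand. Within Bicc1, the 8 fully coding exons with a peak had 16.6 RRACH words per kb and the 11 without a peak had 17.7, so exons with a peak were not richer in the word.

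Bicc1 (ENSMUSG00000014329.14) spans chr10:70922832-71159700 and has 21 exons in the transcript with the longest coding sequence, by which exons are numbered here. Peaks were listed on 10 of the 21 exons, in all 12 kidneys. A peak in all 12 kidneys was shared by 24.3% of the 7774 genes with a peak, and 10 or more loci by 1.21% of them. The median exon length was 158 bp for the 10 exons with a peak and 157 bp for the 11 others. In the 5 genes 50 of 62 peaks spanned exactly a whole annotated exon (80.6%, against 64.5% of all listed peaks), so the edges of these peaks follow the annotation and do not place the methylated base.

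**Figure D1:**
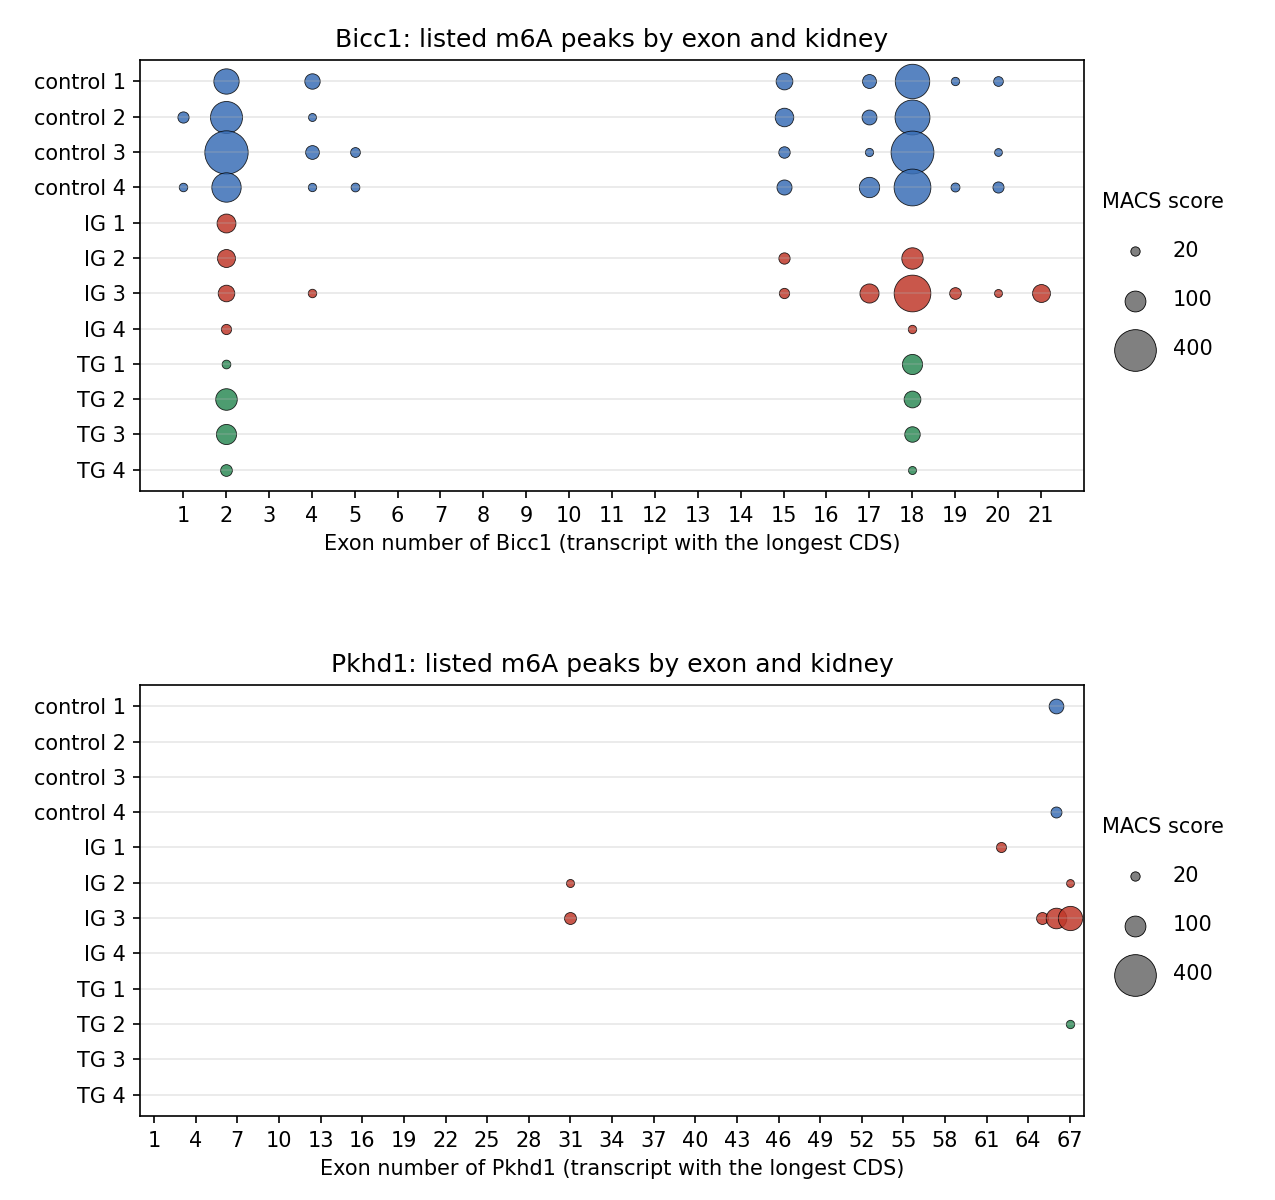
Exon number (horizontal) against kidney (vertical) for Bicc1 and Pkhd1, with 1 point per listed peak, coloured by group and sized in area by its MACS score. Bicc1 exons 2 and 18 were listed in 12 and 11 kidneys, while exons 4, 15 and 17 were listed in every control and in no TG kidney. Pkhd1 had 8 of its 10 peaks on exons 62 to 67 and 2 on exon 31, and 4 of the 10 were in IG 3.

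The number of Bicc1 peaks was 7, 6, 7 and 9 in controls 1 to 4, 1, 3, 8 and 2 in IG 1 to 4, and 2 in each of the 4 TG kidneys. All TG kidneys lay below all controls, and IG 3 alone among the IG kidneys lay within the control range. The means were 7.25 ± 1.26 (SD, n = 4) in controls, 3.50 ± 3.11 in IG and 2.00 in TG, where all 4 values were equal. TG kidneys had 5.25 fewer peaks than controls on average (TvC, difference -5.25, p = 0.0286 in a two-sided exact permutation test, the lowest possible p with 4 kidneys against 4). Of 7242 genes tested in TvC, 7.35% were called lower at the same p, and after Benjamini-Hochberg adjustment over these genes the p-value of Bicc1 was 0.313, with 0 genes under 0.05. In IvC (IG versus controls) the difference was -3.75 (p = 0.114 in the exact test, adjusted p = 0.716), where 7.15% of 7526 genes were called in either direction. Without IG 3 the IvC difference was -5.25 with p = 0.0286 in the exact permutation test. IG 3 was singled out by its own Bicc1 count, so this p is no independent support. With any other kidney left out, p was 0.114 to 0.229 in the same test. In TvI (TG versus IG) the difference was -1.50 (p = 0.714 in the exact test, adjusted p = 1), against 1.14% of 6666 genes called, and without IG 3 it was 0.

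**Figure D2:**
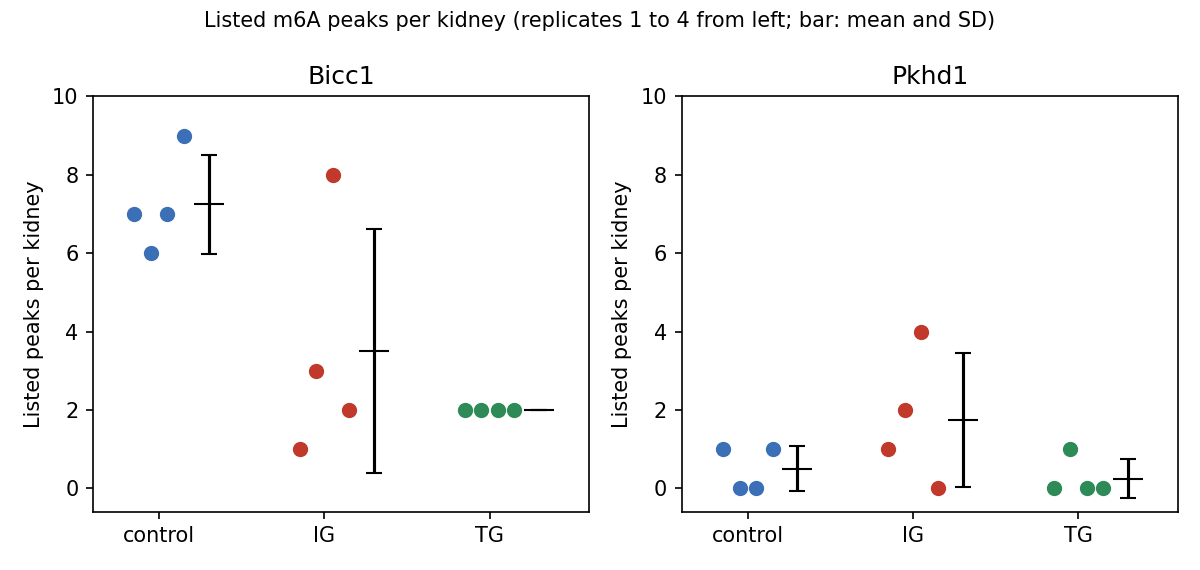
Number of listed m6A peaks per kidney on Bicc1 (left) and Pkhd1 (right) in controls, IG and TG. Points are kidneys with replicates 1 to 4 from left to right, and the bar gives mean and SD (n = 4). The 4 TG kidneys all sit at 2 Bicc1 peaks, below the controls at 6 to 9, and IG 3 stands above the other IG kidneys in both panels.

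Lists were shorter after cisplatin, and the length of a list moved with the number of Bicc1 peaks. Per 1000 listed peaks, Bicc1 had 0.806 ± 0.0985 peaks in controls (SD, n = 4), 0.449 ± 0.355 in IG and 0.314 ± 0.0189 in TG. IG 3, at 0.957 per 1000, was above every control, and the other IG kidneys lay between 0.140 and 0.403. When each list was shortened to its 5901 highest scores, the length of the shortest list, Bicc1 kept 5, 4, 3 and 4 peaks in controls, 1, 3, 4 and 1 in IG and 1, 2, 2 and 1 in TG. At equal length the TvC difference was -2.50 (p = 0.0286, two-sided exact permutation test) and the IvC difference was -1.75 (p = 0.200). At equal list length TG kidneys lay below controls by fewer peaks, and the share of all genes called in this setting is not given here. The part of list length in the difference was not tested. Pecam1, an endothelial marker, had 3, 2, 1 and 2 peaks in controls and 1 in each IG and TG kidney, while Cdh5, another, had 1 or 2 in every kidney of the 3 groups.

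**Figure D3:**
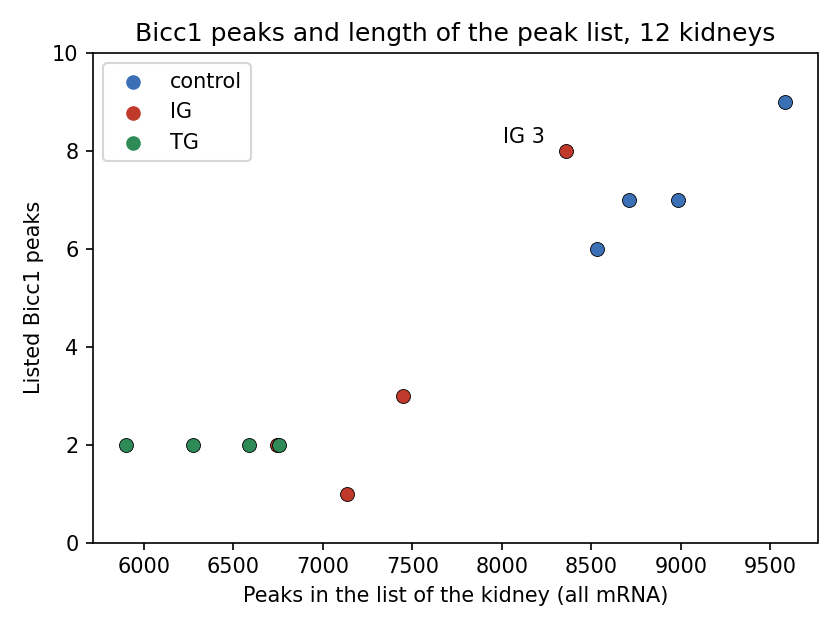
Number of listed Bicc1 peaks (vertical) against the length of the whole list (horizontal), 1 point per kidney. Controls lie at the upper right and TG at the lower left, and IG 3, with 8357 listed peaks, lies near the controls.

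Exon 2 of Bicc1, which is 47 bp long and thus shorter than the RNA fragments used for the pull-down, carried a peak in every kidney. Of the 206 loci of at most 47 bp in the series, 16 (7.77%) were listed in all 12 kidneys, against 14.4% of loci of any length. Its score was 148, 236, 433 and 199 in controls 1 to 4, 82.3, 74.2, 63.5 and 24.2 in IG 1 to 4, and 17.5, 107, 93.3 and 31.8 in TG 1 to 4. Every control was above every IG and TG kidney, and IG and TG overlapped. Because such scores also grow with depth, they were turned into percentiles within the list of each kidney. The percentile was 67.2 to 87.1 in controls, 19.7 to 53.3 in IG and 9.76 to 60.9 in TG, with means of 76.0 ± 8.52 (SD, n = 4), 42.8 ± 15.6 and 39.1 ± 25.0. In IvC the percentile differed by -33.1 points (p = 0.0286 by the exact two-sided permutation, adjusted p over 8137 loci 0.114). In TvC it was -36.9 (p = 0.0286 in the exact test, adjusted p over 7597 loci 0.0986), and in TvI -3.76 (p = 0.886 in the exact test, adjusted p = 0.989).

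Loci called lower by the percentile made up 17.5% of those tested in IvC and 23.3% in TvC. Among the 2417 loci listed in all 12 kidneys, where no value is missing, 15.9% were called lower in IvC and 19.2% in TvC, and the median difference was -1.26 and -2.85. In this set 63 loci (2.61%) in IvC and 43 (1.78%) in TvC were as low as exon 2 or lower. With lists of equal length the IvC difference at exon 2 was -34.7 (p = 0.0286, two-sided exact permutation test), while the TvC difference was -30.2 with p = 0.171. The TvC difference also gave p = 0.0857 in the exact test without any 1 of the 4 controls, whereas the IvC call was made with every kidney left out in turn.

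**Figure D4:**
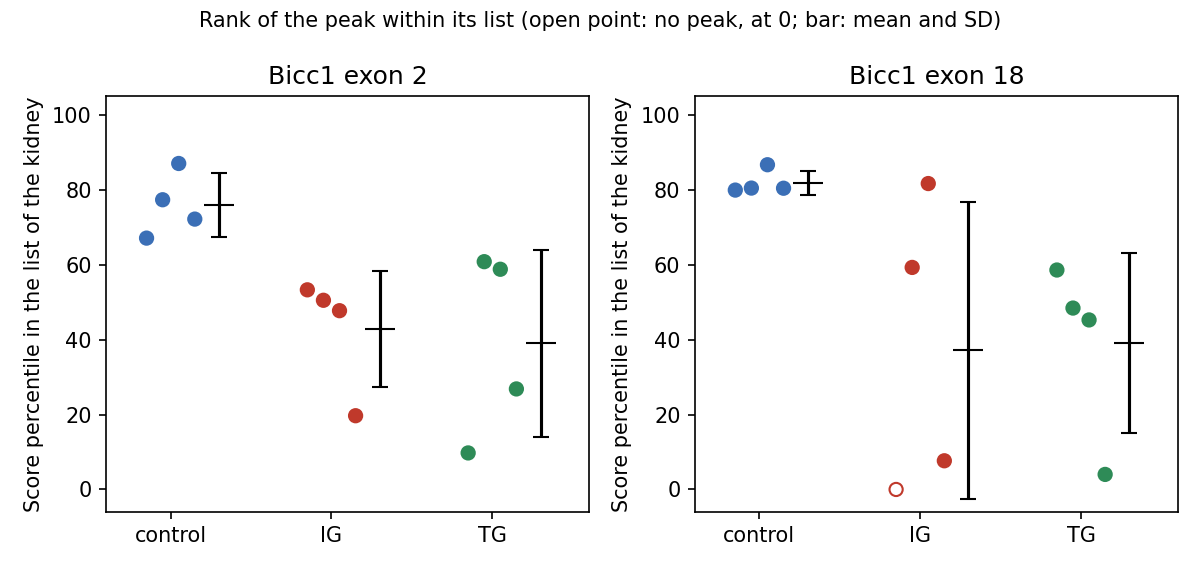
Percentile of the peak score within the list of each kidney at Bicc1 exon 2 (left) and exon 18 (right), by group. Filled points are kidneys with a peak, the open point is IG 1 without a peak at exon 18, drawn at 0, and the bar gives mean and SD (n = 4). Controls lie at 67.2 or above at exon 2 and at 80.0 or above at exon 18, and all TG kidneys lie below them. By the percentile, 23.3% of the 7597 loci tested were called lower in TvC.

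Exon 18, near the 3′ end of the coding sequence, was listed in 4 controls, 3 IG kidneys and 4 TG kidneys. Its peaks all began at the 5′ edge of the exon and ran past its 3′ edge into sequence that the coding transcripts splice out. A noncoding transcript (ENSMUST00000144740.1) ends there in an exon of 1487 bp (chr10:70934502-70935988) that holds exon 18. The 11 peaks were 349 to 709 bp long and shared 349 bp (chr10:70935640-70935988). The score was 274, 281, 423 and 312 in controls, 106, 310 and 16.2 in IG 2, 3 and 4, with no peak in IG 1, and 93.5, 64.9, 55.4 and 14.9 in TG. IG 3 lay among the controls, while the TG kidneys and the remaining IG kidneys were lower. The percentile averaged 81.9 ± 3.22 in controls (SD, n = 4), 37.2 ± 39.7 in IG and 39.1 ± 24.1 in TG. In TvC the percentile differed by -42.8 (p = 0.0286 by the exact two-sided permutation, adjusted p = 0.0986), where 23.3% of 7597 loci were called lower. The IvC difference was -44.8 (p = 0.114 in the exact test, adjusted p = 0.292). Without IG 3 the IvC difference was -59.6 (p = 0.0286 in the exact test), where the 4 control peaks alone met the minimum for testing, so this p is no independent support. Without any 1 control the TvC difference had p = 0.0571 in the exact test. In TvI it was 1.92 (exact permutation test, p = 0.943, adjusted p = 1), and 7.12% of 6704 loci were called in TvI by the percentile.

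The remaining loci were compared by the number of kidneys with a peak. Exons 4, 15 and 17, whose sequences are given above, had a peak in 4 of 4 controls and 0 of 4 TG kidneys (each p = 0.0286, Fisher's exact test, two-sided). These 3 calls stood among 12 loci of the 5 genes tested in TvC, where 3.73% of 15169 loci were called lower. No locus of the series passed Benjamini-Hochberg adjustment (0.604 at these exons). The 3 exons belong to 1 transcript and are not independent of each other. In IG the peak was listed in IG 3 for exon 4, in IG 2 and IG 3 for exon 15 and in IG 3 for exon 17. Control scores were low to moderate, from 14.7 to 54.9 at exon 4, 30.4 to 79.3 at exon 15 and 15.7 to 95.2 at exon 17, where the threshold of the lists is near 13.0. With lists of equal length the difference between TG and controls was 2 kidneys at exon 4 and 3 kidneys each at exons 15 and 17, and no locus of the 5 genes was called.

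In IvC 0 of the 16 loci of the 5 genes were called by Fisher's exact test, with none at an unadjusted p under 0.05, where 4.08% of 16072 loci were called in either direction. Without IG 3, exons 4 and 17 had a peak in 4 of 4 controls and 0 of 3 IG kidneys (each p = 0.0286 in Fisher's exact test). IG 3 was the only IG kidney with a peak there, so leaving it out fixed this outcome and the p is no support. In TvI 0 of 13 loci were called, none of them at an unadjusted p under 0.05, against 0.666% of 13367 loci. The score percentile at exon 15 was 26.1 to 52.5 in controls, 25.1 in IG 2 and 20.8 in IG 3, with no peak in IG 1 and IG 4. Because this locus entered the comparison of percentiles through its 4 control peaks, and exons 4 and 17 did as well, their percentiles are given without a test.

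The other Bicc1 loci were sparse. Exon 20 was listed in 3 controls and IG 3, and exon 19 in 2 controls and IG 3. Exon 1, with the start codon, and exon 5 were each listed in 2 controls and in no IG or TG kidney. Exon 21, which holds the stop codon and 2390 bp of listed 3′ UTR, was listed in IG 3 only, with a score of 73.9. None of these 5 loci had a peak in any TG kidney.

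Pkhd1 (ENSMUSG00000043760.16) covers chr1:20057779-20618064 on the minus strand with 67 exons, of which 5 carried a peak. It had 1, 0, 0 and 1 peaks in controls, 1, 2, 4 and 0 in IG and 0, 1, 0 and 0 in TG. The groups overlapped, and 4 of the 7 IG peaks came from IG 3. The mean was 0.50 ± 0.577 in controls (SD, n = 4), 1.75 ± 1.71 in IG and 0.25 ± 0.50 in TG. Differences of 1.25 in IvC and -1.50 in TvI did not pass the two-sided exact permutation test (p = 0.371 and p = 0.257, adjusted p = 1 for both). Without IG 3 they were 0.50 and -0.75. Slc12a1, the transporter of the thick ascending limb with 1 of 4 loci called lower in TvI, had 2, 0, 0 and 0 peaks in controls, 1, 2, 4 and 1 in IG and none in TG. Its part in the Pkhd1 values was not tested. The TvC difference was -0.25 (p = 1 in the exact test).

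Exon 66, the penultimate exon of Pkhd1, and exon 67, which holds the stop codon, were listed in 3 kidneys each. The score at exon 66 was 50.1 in control 1, 27.9 in control 4 and 97.7 in IG 3. The score at exon 67 was 14.3 in IG 2, 136 in IG 3 and 16.2 in TG 2. Exon 31 was listed in IG 2 and IG 3, exon 65 in IG 3 and exon 62 in IG 1. The peaks thus lay mostly at the 3′ end of the transcript, 8 of 10 on exons 62 to 67. Exon 66 is shown because it was the locus of these genes with the highest density of RRACH, on chromosome 1 of GRCm38, minus strand, with RRACH in capitals.
Pkhd1 exon 66 (chr1:20070378-20070500, 123 bp, coding): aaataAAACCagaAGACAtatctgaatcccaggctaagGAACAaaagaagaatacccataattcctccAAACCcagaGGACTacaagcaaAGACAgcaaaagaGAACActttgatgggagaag

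It contained 7 RRACH words, 1 of them GGACT, and 0 on the opposite strand. Of the 1411 loci within 10% of its length 0.85% held 7 or more, and their median was 2. The other Pkhd1 loci held 1 word each at exons 31 and 62, 2 at exon 65 and 18 at exon 67.

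Pkd1 (ENSMUSG00000032855.6, chr17:24549834-24596508, plus strand) had a single peak among its 46 exons. It covered exon 15, the longest exon of the gene with 3626 bp (chr17:24572618-24576243, coding), in control 1 with a score of 18.1, close to the threshold of the lists and at the 10.6th percentile. This exon held 41 RRACH words, against a median of 53 in the 185 loci close in length. Pkd2 (ENSMUSG00000034462.9, chr5:104459450-104505819, 15 exons) and Ganab (ENSMUSG00000071650.6, chr19:8898071-8916672, 25 exons) had no listed peak in any of the 12 kidneys. The lists hold peaks selected on exons, so introns of these genes were not examined. A transcript without a listed peak can lack m6A or have too few reads for a call, and the lists do not tell these apart. Such genes are common, since 64.7% of the 22028 protein-coding genes had no listed peak.

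Other genes of cystic kidney disease were examined in 4 lists by role. Of these 50 genes 21 (42.0%) had a peak in some kidney, against 35.3% of all protein-coding genes. None of the 7 relatives of the polycystins and fibrocystin (Pkd1l1, Pkd1l2, Pkd1l3, Pkd2l1, Pkd2l2, Pkdrej and Pkhd1l1) had one. Of 10 genes of protein maturation in the endoplasmic reticulum and of liver cysts 3 had a peak, among them Sec63, a part of the protein import machinery, and Lrp5, a Wnt co-receptor, both in all 12 kidneys. Ciliary trafficking and nephronophthisis genes had a peak in 15 of 26 cases, 8 of them in all 12 kidneys.

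Among the 83 loci of the ciliary genes 3 were called lower in IvC, with a peak in 4 of 4 controls and 0 of 4 IG kidneys (Fisher's exact test, each p = 0.0286, adjusted p = 0.701), and 0 were called higher. Over the series 2.73% of loci were called lower in IvC, close to this share. They lay in Invs, which encodes the ciliary protein inversin (chr4:48421447-48422149), Cep290, a component of the ciliary transition zone (chr10:100537436-100537891), and Ift88, a subunit of intraflagellar transport (chr14:57444355-57444457). The loci of Cep290 and Ift88 were also absent from all TG kidneys, while that of Invs was listed in 2 TG kidneys. Thus 2 of the 83 loci were called lower in TvC, where 3.73% of 15169 loci were called lower. Of the 7 genes of dominant tubular disease and growth control 3 had a peak, and Muc1, a membrane mucin, had a locus in 4 controls, 1 IG kidney and 0 TG kidneys (chr3:89229911-89231214). Among the 11 loci of these genes it was the only 1 called lower in TvC. In TvI 0 loci of these 4 lists were called, where 0.666% of 13367 loci of the series were called in either direction.

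The genes whose highest score percentile per kidney was most like that of Bicc1 over the 12 kidneys were Kif1c (Pearson r = 0.919), a kinesin motor, Ptger3 (r = 0.917), a prostaglandin E receptor, and Ncoa7 (r = 0.909), out of 4400 genes listed in 6 kidneys or more. For Pkhd1 they were Gtf2f2 (r = 0.884), Trio (r = 0.881) and Zfp960 (r = 0.859). Bicc1 and Pkhd1 had r = 0.449 with each other. These values describe 12 points that share their libraries, and the length of the list differs between the groups, so no test was made of them.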

How the data were processed

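MeRIP-seq peak lists of 12 kidneys (4 controls, 4 IG, 4 TG) were analysed, grouped by the sample titles. The authors used Cutadapt 1.9.3 to trim reads, HISAT2 2.0.4 to align them to mm10, which is GRCm38, and MACS to find peaks, of which those on exons of mRNA were selected, with a list for each kidney. The deposited score was read as -10 times the log10 of the p-value, since its lowest values lie just above 13.0, the score that a p-value of 0.05 gives on this scale. Version, threshold and control library of MACS are not given in the sources used here. Input libraries and RNA-seq were not used here. The lists hold no read counts, so precision rests on 4 kidneys per group.

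Exons and protein-coding genes came from GENCODE M21, and sequence from the RefSeq copy of GRCm38. Peaks sharing at least 1 bp on a strand were joined into loci. Presence of a peak was compared with two-sided Fisher's exact tests, and peaks per gene and score percentiles within a list (0 where no peak was listed, loci listed in 4 or more of 8 kidneys) with two-sided exact permutation tests over 70 arrangements. All genes and loci of the series were tested and adjusted by the Benjamini-Hochberg method, and called means an unadjusted p under 0.05, which for presence only 4 of 4 against 0 of 4 kidneys reaches. The 3 comparisons share kidneys. Functions were tested on simulated data. The 5 genes, the gene lists and the tests were chosen with earlier results of these data known. Named were all loci of the 5 genes, listed genes with a called locus or otherwise the 2 of a list with a peak in most kidneys, and the 3 genes most like each member. Alternatives were equal list lengths, scores at or above the median (71.3), other ways of joining peaks, a larger exon overlap, the replicate number as a block and each kidney left out. RefSeq exons were added after seeing the data. Tools were scipy 1.17.1, numpy 2.4.6, pysam 0.24.0 and matplotlib 3.10.9 under Python 3.11.15.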

Additional observations from a re-analysis of the deposited data

Results flagged for a closer look

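Within a group of 4 kidneys, 1 kidney stood far from the other 3, by its gap to the nearest kidney as a share of the whole range (Dixon's ratio), in 7 of 23 groups with differing values. For continuous values chance marks about 1 in 20 groups, but in 5 of the 7 the other 3 kidneys had no peak, so that the listing of 1 peak was enough and this rate does not hold. These were Pkd1 with 1 peak in control 1, Pkhd1 with 1 peak in TG 2, and IG 3 at Bicc1 exons 4, 17 and 20 with score percentiles of 8.38, 55.5 and 4.27. At Bicc1 exon 2 the percentile of IG 4 was 19.7, below the other IG kidneys at 47.8 to 53.3. At Bicc1 exon 18 the percentile of control 3 was 86.8, above the other controls at 80.0 to 80.5. IG 3 was the kidney that stood apart in 3 of the 7 groups.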

How the results depend on the processing

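Joining peaks within 100 bp or regardless of strand changed no number of called loci among the 5 genes, and asking for a larger exon overlap changed no number of called loci or genes. A reciprocal overlap of 50% gave 3 loci called by score percentile in IvC in place of 2, but the added call came from dividing the exon 18 peaks, since IG 2 and IG 3, with peaks of 349 and 354 bp, then counted as 0 while controls 2 and 3, with 355 bp, did not, and it is no support. RefSeq exons gave the same number of peaks on each of the 5 genes. In TvC 3 loci were called by presence, which became 0 with equal list lengths and 0 with scores at or above the median, and 3 to 4 when 1 kidney was left out. By score percentile 2 loci were called in IvC, 1 with equal lists, 1 above the median score and 1 to 2 with 1 kidney left out, and 5 in TvC, with 1, 2 and 0 to 3 under the same settings. Of these 5, exons 4, 15 and 17 had no TG peak and entered only through their 4 control peaks, so they restate the presence of peaks and are no further support. The same holds for exon 15 among the 2 in IvC. Without IG 3, 2 loci by presence and 1 gene by peak number were called in IvC in place of 0, and in the other leave-one-out settings 0. IG 3 was singled out by its own peaks on these genes, so these calls are no support. The replicate numbers do not pair the kidneys, since same-numbered kidneys deviated together with correlations of -0.0292 to 0.107, over 0.1 in 1 of 12 pairs. With the replicate block the smallest p is 0.125, so 0 loci and 0 genes were called in each comparison (0 of 3 and 0 of 5 loci and 0 of 1 gene in TvC, 0 of 2 loci in IvC), which says nothing about stability. Differences in TvI at exons 2 and 18 had no stable sign. The percentile at exon 2 (-3.76) was 4.53 with equal lists, 6.37 above the median score and -11.5 to 6.01 with 1 kidney left out. At exon 18 (1.92) it was -10.5 to 16.8 with 1 kidney left out, and the number of kidneys with a peak (1 more in TG) was -1 above the median score. RRACH density of Bicc1 was 14.8 words per kb and 14 in the 100 bp around the midpoint of each locus. The unknown depth limits every comparison, since a peak just under the threshold counts as missing.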
